A study of Mus musculus with 2 samples.

Results

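Zfp217 peaks were examined at 7 gene loci of CCE mouse embryonic stem cells: the pluripotency genes Nanog, Pou5f1, Sox2, Klf4, Myc and Esrrb, and Zfp217, the gene of the immunoprecipitated protein. A peak belonged to a locus where it overlapped the gene's interval extended by 50 kb on each side. Of the 18737 peaks in the authors' deposited list, 37 (0.197%) met this rule. They were distributed over all 7 loci, and no locus was without a peak. The gene intervals were given in the mouse build mm9 with edges rounded to 1 kb, so every distance to a gene carries that rounding.

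CCE is an established line of mouse embryonic stem cells, and here it was untreated and grown feeder-free on gelatin in medium with serum and LIF, the cytokine that maintains such cells. The data came from 1 library of chromatin precipitated with a Zfp217 antibody (Santa Cruz SC-55351x), called the immunoprecipitation below, and 1 input library of the same line. The peak list gives the position and name of each peak and no height, fold enrichment or probability. The read depth behind a peak is therefore unknown, no value of the input could be set beside a peak, and with a single immunoprecipitation there was no spread between replicates and no test. Width was the only size a peak carried.

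Nanog, Pou5f1 (Oct4) and Sox2 encode the transcription factors at the centre of the embryonic stem cell network, which bind their own and each other's regulatory regions. Klf4, Myc and the nuclear receptor Esrrb encode further factors of that network, several of which are used to reprogram differentiated cells. Zfp217 encodes a zinc finger protein known from repressor complexes with CoREST, CtBP and the histone demethylase LSD1, and the series title places it in the study of m6A methylation of RNA.

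Every one of the 7 gene intervals was itself overlapped by at least 1 peak, so the distance from each interval to its nearest peak was 0 bp. Of the 37 peaks, 19 overlapped a gene interval, 5 lay upstream and 13 downstream. As background, consecutive windows of the same length were laid over chromosomes 1 to 19 and X. At least 1 peak was found in 34.3% of windows as long as the extended Nanog interval, 33.9% of those as long as the extended Pou5f1, Klf4 and Myc intervals and 33.6% for Sox2. The corresponding shares were 39.0% for Zfp217 and 53.5% for Esrrb, whose extended intervals are longer. A single peak within 50 kb was thus common in the genome. Windows with at least as many peaks as the locus were rarer. They made up 0.771% for the 8 peaks of Nanog, 3.09% for the 5 of Myc and 4.71% for the 5 of Zfp217. For the 4 peaks of Sox2 the share was 4.97%, for the 4 each of Pou5f1 and Klf4 it was 5.26%, and for the 7 of Esrrb it was 6.98%. A peak in a window as short as the gene interval was less common, with 4.77% of windows for Nanog, 3.71% for Pou5f1, Klf4 and Myc, 2.62% for Sox2, 16.6% for Zfp217 and 42.5% for Esrrb. These windows cover genes and gene-free sequence alike. The share among expressed genes or among promoters was not measured, since no mm9 annotation was used here.

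**Figure D1:**
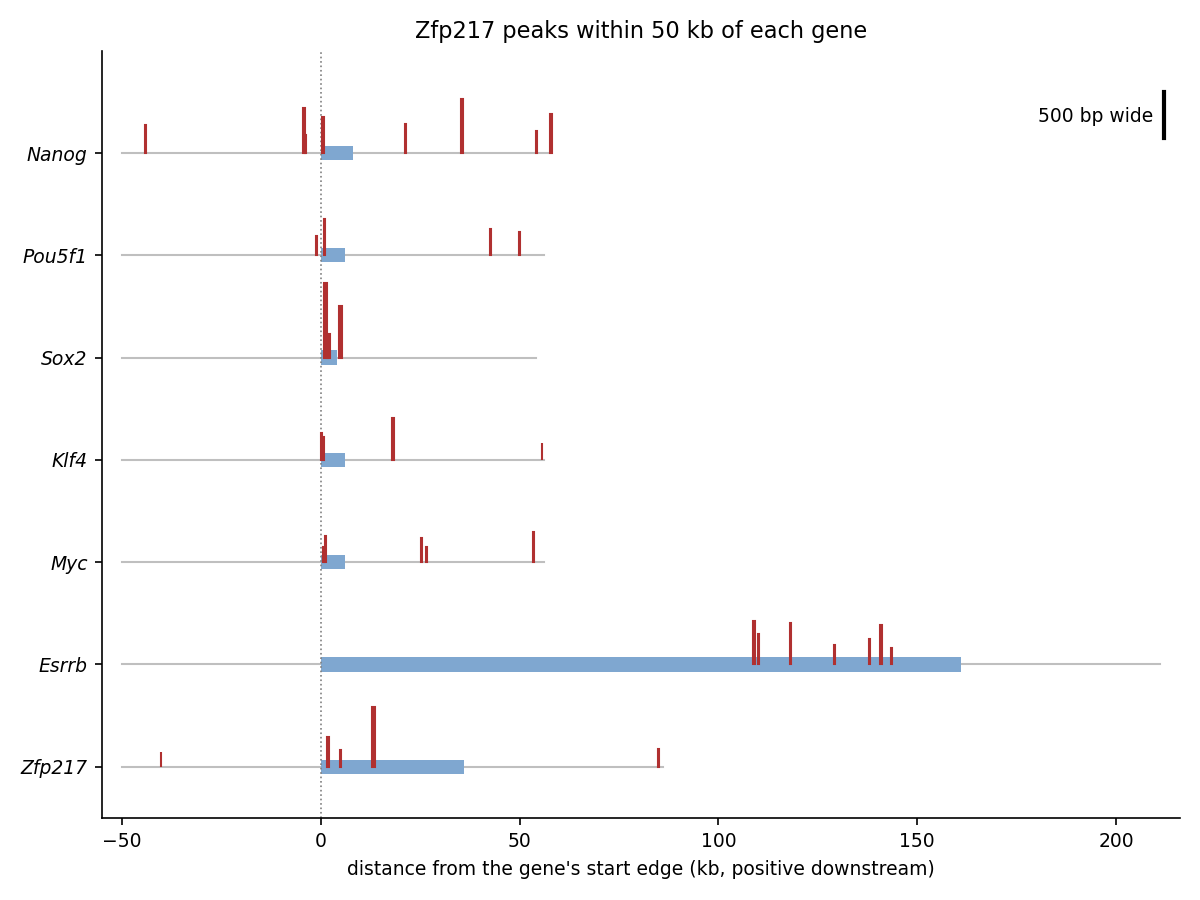
Zfp217 peaks (red) at the 7 loci, plotted by distance in kb from the start edge of the gene interval (dotted line), with the gene interval in blue and the extended interval as a grey line; the height of each mark is the peak's width, with a 500 bp scale bar. A peak lies within 2 kb of the start edge of every interval except that of Esrrb, whose 7 peaks lie between 108.8 and 143.5 kb into the gene.

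In 6 of the 7 genes a peak lay within 2 kb of the edge of the interval on the side where the gene starts, called the start edge, against 2.62% of consecutive 4 kb windows that held a peak. This distance was chosen after the positions were seen. The nearest peak began 109 bp inside the start edge at Klf4, 393 bp at Nanog, 634 bp at Myc, 706 bp at Sox2, 759 bp at Pou5f1 and 1664 bp at Zfp217. At Esrrb it began 108.8 kb inside. Within 1 kb the number of genes was 5, with Zfp217 falling outside, beside 1.48% of 2 kb windows with a peak. Within 5 kb it was again 6, beside 5.77% of 10 kb windows.

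The rounded edges allowed a closer bound for the genes whose RefSeq length is shorter than the interval. If a gene has the same length in mm9 as in RefSeq's GRCm38.p6 and lies inside its interval, its first base lies no deeper than the difference of the lengths, which is 855 bp for Nanog, 1254 bp for Pou5f1, 1533 bp for Sox2, 661 bp for Klf4, 979 bp for Myc and 488 bp for Esrrb. At 5 of these 6 genes, all but Esrrb, a peak overlapped the stretch in which the gene must then begin. These peaks are among those already counted near the start edge. The share of windows as short as these stretches was not measured. Of 2 kb windows, which are longer, 1.48% held a peak. The RefSeq gene of Zfp217, 43035 bp, is longer than its interval of 36 kb, so no such bound could be set there, and its peak is near the edge of the interval without being placed relative to the start of the gene.

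**Figure D2:**
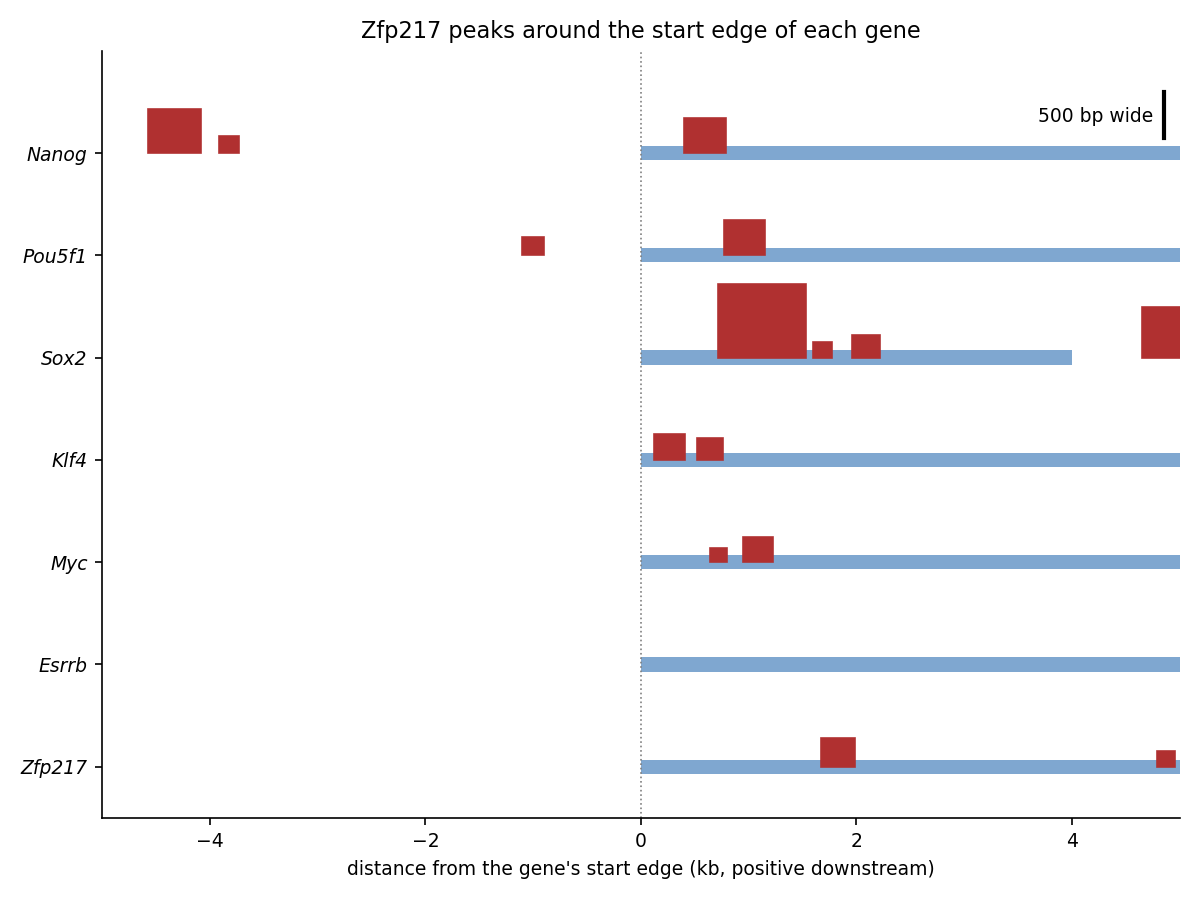
The same peaks within 5 kb of the start edge, drawn to scale along the gene (kb, positive downstream), with the height showing the width of the peak (500 bp scale bar) and gene intervals in blue. Peaks of Nanog, Pou5f1, Sox2, Klf4 and Myc begin between 109 and 759 bp inside the edge, that of Zfp217 1664 bp inside, and Esrrb has none in view.

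The sequence just upstream of the start is shown for the 5 genes with a peak within 2 kb of the start edge for which the RefSeq promoter table (GRCm38.p6) has an entry; Myc has none. Each run is the 250 bases before the start, 5′ to 3′ on the gene's strand. The table lists 2 starts each for Nanog, Pou5f1 and Zfp217. Both are shown for Zfp217, which had peaks near the start edge and deeper in the interval, and the first alone for the other 2. Capitals mark GGGCGG or its reverse complement CCGCCC, the GC box recognised by Sp and Klf family proteins. The windows are chr6:122707239-122707488 (plus strand) for the first of the starts of Nanog, chr17:35505782-35506031 (plus) for Pou5f1, chr3:34649745-34649994 (plus) for Sox2 and chr4:55532476-55532725 (minus) for Klf4. Those of Zfp217 are chr2:170142676-170142925 and chr2:170131221-170131470 (minus). Positions in GRCm38.p6 cannot be set against the mm9 peaks.
Nanog: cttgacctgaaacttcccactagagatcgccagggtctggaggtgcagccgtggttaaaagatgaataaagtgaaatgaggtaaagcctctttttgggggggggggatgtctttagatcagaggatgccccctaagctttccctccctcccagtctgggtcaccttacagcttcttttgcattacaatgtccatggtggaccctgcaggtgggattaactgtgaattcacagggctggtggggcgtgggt
Pou5f1: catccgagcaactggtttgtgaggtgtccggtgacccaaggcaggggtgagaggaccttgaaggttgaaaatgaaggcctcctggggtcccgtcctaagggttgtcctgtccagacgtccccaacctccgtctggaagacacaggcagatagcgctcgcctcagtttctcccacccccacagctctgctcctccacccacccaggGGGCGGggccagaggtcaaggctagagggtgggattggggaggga
Sox2: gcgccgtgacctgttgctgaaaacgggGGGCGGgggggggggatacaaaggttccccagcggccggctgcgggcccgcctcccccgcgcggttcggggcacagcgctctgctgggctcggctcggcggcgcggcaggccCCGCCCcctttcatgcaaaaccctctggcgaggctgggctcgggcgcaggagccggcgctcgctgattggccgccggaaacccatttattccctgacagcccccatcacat
Klf4: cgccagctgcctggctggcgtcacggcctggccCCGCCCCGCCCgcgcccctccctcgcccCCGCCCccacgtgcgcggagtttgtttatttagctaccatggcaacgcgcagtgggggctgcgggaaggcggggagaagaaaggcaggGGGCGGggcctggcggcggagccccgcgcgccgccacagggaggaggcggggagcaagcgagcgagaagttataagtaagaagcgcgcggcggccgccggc
Zfp217, first start: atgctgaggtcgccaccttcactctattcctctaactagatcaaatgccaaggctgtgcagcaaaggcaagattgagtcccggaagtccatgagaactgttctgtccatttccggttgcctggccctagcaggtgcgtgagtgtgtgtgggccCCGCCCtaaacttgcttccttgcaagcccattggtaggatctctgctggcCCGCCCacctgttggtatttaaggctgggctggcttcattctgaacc
Zfp217, second start: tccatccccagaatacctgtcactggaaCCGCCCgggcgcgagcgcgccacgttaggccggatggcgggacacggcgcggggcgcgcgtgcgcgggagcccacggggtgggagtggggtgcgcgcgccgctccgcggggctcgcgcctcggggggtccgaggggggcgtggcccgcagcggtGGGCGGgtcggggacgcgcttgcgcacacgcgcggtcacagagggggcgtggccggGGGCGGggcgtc

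These upstream sequences differed widely in base composition. The G+C content was 52.0% upstream of Nanog, 54.4% at the first start of Zfp217, 62.0% at Pou5f1, 72.0% at Sox2, 74.0% at Klf4 and 80.0% at the second start of Zfp217, beside a median of 52.4% over the 32851 starts in the table. CpG dinucleotides numbered 3 at Nanog, 6 at the first start of Zfp217, 8 at Pou5f1, 27 at Sox2, 32 at Klf4 and 43 at the second start of Zfp217, beside a median of 6. The genes with a peak near the start edge thus included some with CpG-rich upstream windows, as Sox2 and Klf4, and some with CpG-poor ones, as Nanog; whether a peak covers such a window was not tested. GGGCGG, read on both strands with overlapping matches counted, occurred 4 times at Klf4, 3 times at the second start of Zfp217, 2 times at its first start and at Sox2, 1 time at Pou5f1 and 0 times at Nanog. It was found at 32.7% of all starts. The letters CAGAA, the core of a binding motif described for human ZNF217, were searched on both strands in the same way and did not overlap a GC box. They occurred 2 times at the first and 1 time at the second start of Zfp217 and in none of the windows shown for Nanog, Pou5f1, Sox2 and Klf4. The windows before the second starts, not shown, held 1 match at Pou5f1, with a G+C content of 45.6% and no GC box, and none at Nanog, with 57.6% and no GC box. The letters CAGAA were found at 55.4% of all starts. A match is a run of letters in this window and no measure of binding.

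Nanog, a homeodomain factor whose gene interval is chr6:122657000-122665000, had the most peaks, with 8 within 50 kb. The peak that overlapped the interval, from 122657393 to 122657792, was 400 bp wide. A pair lay just upstream, from 122652416 to 122652913 (498 bp wide) and from 122653075 to 122653268 (194 bp), 4.09 and 3.73 kb before the gene and 161 bp apart. The remaining upstream peak, 306 bp wide, lay 43.9 kb away. Downstream, peaks of 323, 593, 238 and 432 bp lay 13.1, 27.2, 46.2 and 49.6 kb beyond the gene. The widest of the 8 was thus not at the gene but 27.2 kb downstream, from 122692194 to 122692786. The protein-coding neighbours of Nanog are Dppa3, a gene of the germline and early embryo, and Slc2a3, a glucose transporter gene. To which gene a peak at a distance belongs was not tested.

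Pou5f1, which encodes Oct4 and whose interval is chr17:35642000-35648000, had 4 peaks. The peak inside the interval, from 35642759 to 35643153, was 395 bp wide and was the widest of the 4. A narrower peak of 208 bp, from 35640889 to 35641096, lay 0.904 kb upstream of the interval. The other two, of 284 and 260 bp, lay 36.5 and 43.8 kb downstream, and no peak lay in the 41379 bp between the peak at the gene and the first of them. The neighbours of Pou5f1 are H2-Q10, a gene of the major histocompatibility complex, and Tcf19.

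Sox2, an HMG box factor encoded by the interval chr3:34548000-34552000, carried the widest of the 37 peaks. That peak, 824 bp from 34548706 to 34549529, was at least as wide as 97.6% of all peaks in the list. It was followed after 60 bp by a peak of 181 bp from 34549590 to 34549770, and after a further 182 bp by one of 263 bp from 34549953 to 34550215. Together these 3 peaks filled 84.0% of a stretch of 1510 bp, and they became 1 region when peaks within 1000 bp were merged. The fourth peak, from 34552643 to 34553209 and 567 bp wide, lay 0.643 kb downstream. No peak lay upstream within 50 kb, or elsewhere in the extended interval. The next peaks beyond the extended interval were 3 peaks of 339, 183 and 389 bp, 104.8, 107.4 and 108.2 kb downstream of the gene, and on the upstream side the next peak was 567.5 kb away.

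Klf4, a zinc finger factor of the Krüppel-like family encoded on the minus strand at chr4:55540000-55546000, had 4 peaks. A pair lay inside the interval near its start edge, of 298 bp from 55545594 to 55545891 and of 255 bp from 55545237 to 55545491, 102 bp apart. Further peaks of 457 and 184 bp lay 11.8 and 49.5 kb downstream. No peak lay upstream within 50 kb, and the next one on that side was 902.0 kb away. Rad23b and Actl7b are the protein-coding neighbours.

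Myc, a basic helix-loop-helix factor that drives growth, is encoded at chr15:61816000-61822000 and had 5 peaks. A pair lay inside the interval near its start edge, of 166 bp from 61816634 to 61816799 and of 287 bp from 61816941 to 61817227, 141 bp apart. Downstream lay a pair of 271 and 165 bp, at 19.3 and 20.5 kb, and a peak of 331 bp at 47.4 kb. The widest of the 5, at 331 bp, was close to the median of all peaks, 321 bp, and the others were narrower. No peak lay upstream within 1 Mb of the extended interval, and the next on that side was 1159 kb from the gene.

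Esrrb, an orphan nuclear receptor gene of 161 kb at chr12:87702000-87863000, differed from the other loci in where its peaks lay. All 7 peaks were inside the gene, none in the 50 kb on either side, and none in the first 108.8 kb. They ran from 87810803 to 87845518, over 34.7 kb, and left the last 17.5 kb of the gene free. Their widths were 475, 340, 453, 213, 276, 434 and 184 bp from the first to the last. The first pair was 587 bp apart, and the other gaps ran from 2239 to 10766 bp. Over that stretch, whose ends were set by the peaks themselves, the density was 20.2 peaks per 100 kb. Of windows as long as the gene interval, 2.96% held 7 peaks or more. RefSeq gives Esrrb a second start 60.5 kb after the first in GRCm38.p6. If that distance is the same in mm9 and the first start lies near the start edge, the second start also falls within the part without peaks. This was not tested, since the builds cannot be joined here.

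Zfp217 itself, encoded on the minus strand at chr2:169934000-169970000, had 5 peaks, of which 3 lay inside the gene interval. From the start edge inwards these were a peak of 322 bp from 169968015 to 169968336, one of 183 bp from 169965040 to 169965222 and one of 652 bp from 169956487 to 169957138. The last was the second widest of the 37 and at least as wide as 93.5% of all peaks. Its midpoint lay 11363 bp from that of the peak nearest the start edge, while the starts RefSeq lists for Zfp217 are 11455 bp apart in GRCm38.p6. This pair was picked from the 3 peaks inside the interval after the positions were seen, and the other pairs were not compared. Whether each of these peaks lies at a start was not tested, since the builds cannot be joined here. The other two peaks, of 164 bp at 40.1 kb upstream and of 196 bp at 48.8 kb downstream, were narrower than 227 bp, the width that 25% of all peaks do not reach. The neighbours are Tshz2 and Bcas1.

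At most loci the peaks were denser within 50 kb of the gene than in the 1 Mb flanks. Within the extended intervals the density was 7.41 peaks per 100 kb at Nanog, 4.72 at Myc, 3.85 at Sox2, 3.77 at Klf4 and Pou5f1, 3.68 at Zfp217 and 2.68 at Esrrb, beside 0.707 over chromosomes 1 to 19 and X. In 6 of the 7 the extended interval was denser than the 1 Mb on either side of it. At Esrrb the margin was small, 2.68 against 2.40 in the denser flank. How often other windows of the genome are denser than both of their flanks was not measured. Pou5f1 was the exception. Its flanks held 43 peaks on the side of lower coordinates and 30 on the other, or 3.65 per 100 kb together, so that the ratio of the locus to its flanks was 1.03.

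The flanks of Myc were the emptiest, with 0 peaks on the side of lower coordinates and 3 on the other, and its ratio was 31.4. This ratio rests on 3 peaks and was 18.9 with peaks within 1000 bp merged and 15.7 with flanks of 500 kb. Klf4 had 7 and 1 flanking peaks (ratio 9.43), Nanog 14 and 5 (7.80), Sox2 6 and 7 (5.92) and Zfp217 1 and 13 (5.25). Esrrb had 13 and 24 peaks (1.45). With flanks of 500 kb the ratio fell to 3.90 at Nanog and 2.83 at Zfp217, rose to 12.8 at Sox2 and was 0.740 at Pou5f1. Among the wider 50% of peaks it was 14.7 at Zfp217, from 2 peaks at the locus, and 0.524 at Pou5f1, from 1. The surroundings thus ranged from sparse, at Myc (0.15 peaks per 100 kb) and Klf4 (0.40), to peak-rich, at Esrrb (1.85) and Pou5f1 (3.65). Sox2 (0.65), Zfp217 (0.70) and Nanog (0.95) lay between. The extended intervals of Myc, Klf4, Esrrb and Pou5f1 held 4.72, 3.77, 2.68 and 3.77 peaks per 100 kb.

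**Figure D3:**
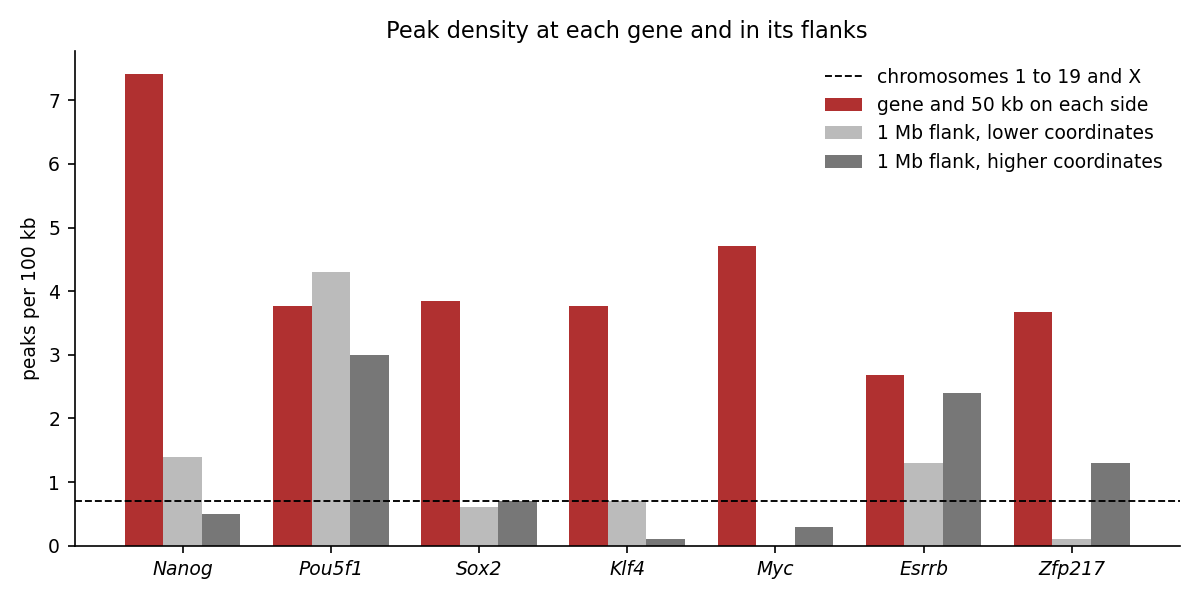
Peaks per 100 kb within 50 kb of each gene (red) and in the 1 Mb flank on the side of lower (light grey) and higher (dark grey) coordinates; the dashed line is the density of chromosomes 1 to 19 and X, 0.707. Nanog is highest at 7.41, and only at Pou5f1 is a flank, with 4.30, denser than the locus.

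**Figure D4:**
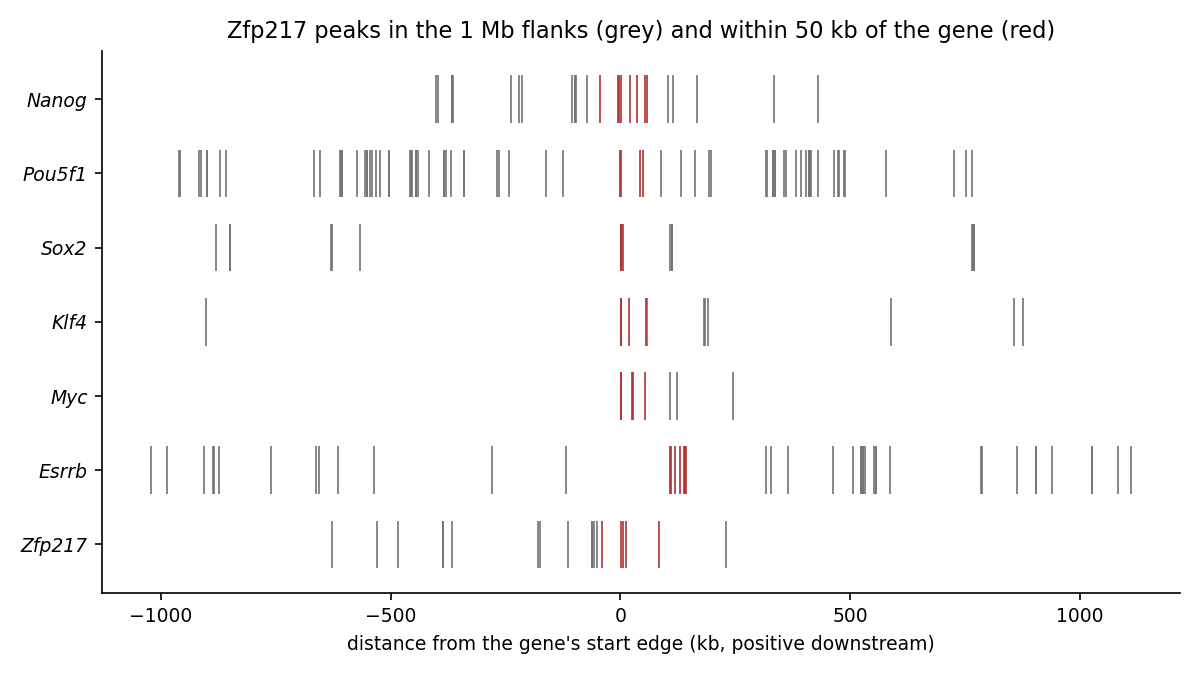
Position of every peak out to 1 Mb beyond the extended interval, in kb from the gene's start edge (positive downstream), with peaks within 50 kb of the gene in red and flanking peaks in grey. Pou5f1 has 73 flanking peaks and Myc 3, all of them downstream.

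The concentration was at the genes rather than in the sequence beside them. Inside the 6 genes other than Esrrb, which together span 66 kb, 12 peaks gave 18.2 per 100 kb, and inside Esrrb 7 peaks gave 4.35. Outside the intervals, the density was 2.86 per 100 kb up to 10 kb away and 1.90 between 10 and 25 kb. It was 2.86 between 25 and 50 kb and 1.57 between 50 and 100 kb. These bands held 4, 4, 10 and 11 peaks, too few to order them. In the 1 Mb flanks of the 7 loci together, 167 peaks gave 1.19 per 100 kb.

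The 50 kb limit fell among peaks at some loci and not at others. With 100 kb on each side, Sox2, Myc and Esrrb kept 4, 5 and 7 peaks. Nanog then had 13, Zfp217 9, and Pou5f1 and Klf4 5 each. Between 45 and 50 kb from a gene lay 5 peaks, the farthest at 49.6 kb from Nanog, and between 50 and 55 kb lay 2, at 51.2 kb from Zfp217 (232 bp wide) and 51.5 kb from Klf4 (167 bp). A further 3 peaks lay 57.2 to 61.9 kb upstream of Zfp217.

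The 37 peaks had widths near those of the whole list. Their median width was 287 bp, with a range of 164 to 824 bp, beside a median of 321 bp and a middle 50% of 227 to 467 bp over the whole list. Only 6 were wider than 467 bp and 11 were narrower than 227 bp. The 6 were a pair at Nanog (593 and 498 bp), a pair at Sox2 (824 and 567 bp) and a single peak each at Zfp217 (652 bp) and Esrrb (475 bp). Peaks that overlapped a gene interval had a median of 298 bp and those outside 277.5 bp. The 11 peaks within 2 kb of a start edge had a median of 287 bp and ranged from 166 bp at Myc to 824 bp at Sox2. Peaks near a start edge thus had no single width.

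**Figure D5:**
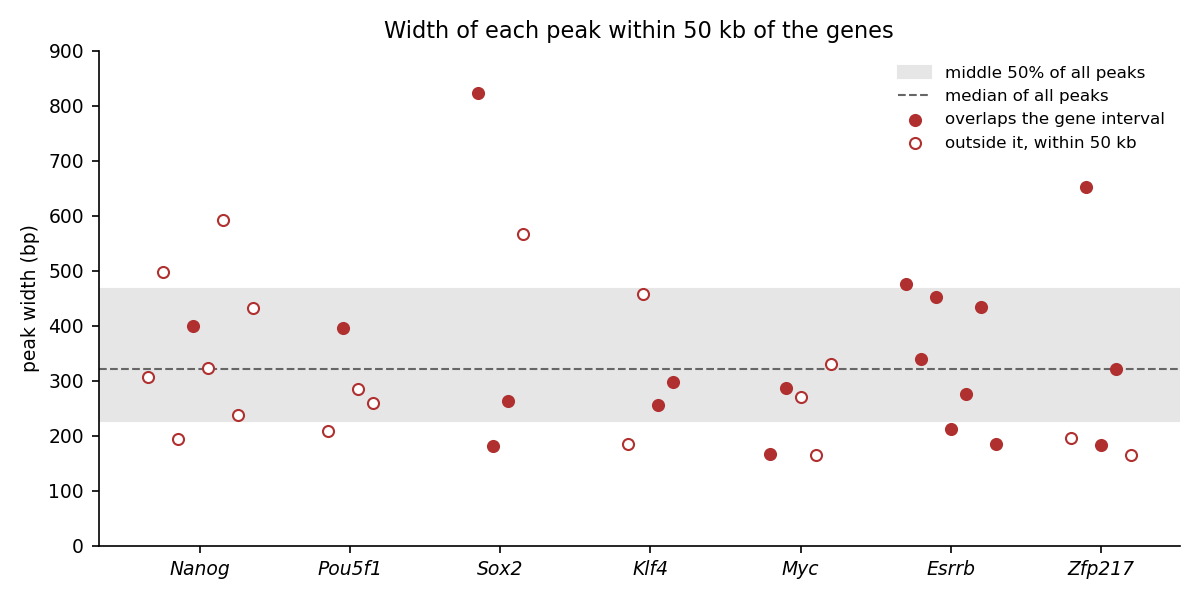
Width in bp of each of the 37 peaks by gene, in order of coordinate from left to right. Filled points are peaks that overlap the gene interval and open points those outside it. The grey band and dashed line are the middle 50% (227 to 467 bp) and median (321 bp) of all peaks. Only 6 points lie above the band, at Nanog, Sox2, Esrrb and Zfp217.

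Some of the peaks lay close together. Of the 30 gaps between successive peaks of a locus, 7 (23.3%) were at most 1000 bp. Over chromosomes 1 to 19 and X, 14.9% of all gaps and 20.5% of those up to 100 kb were this short, so that the share at these loci was near that of the list. Merging across them left 30 of the 37 peaks. Near the start edges of Sox2, Klf4 and Myc the merging joined 3, 2 and 2 peaks into 1 region each. The intervals of Nanog, Pou5f1, Sox2, Klf4 and Myc then held exactly 1 region each. An interval can begin before its gene, so such a region need not lie inside the gene. Whether such runs are separate sites or 1 site divided by the peak caller cannot be told from the list.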

How the data were processed

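The authors deposited 1 list of peak positions in mm9 (chromosome, start, end and name), with no score or other value per peak. The submitters' processing notes name CASAVA 1.4, Bowtie2 and MACS2 without roles or settings; the sources used here do not give the threshold, the handling of duplicate reads or the use of the input. Per the labels' protocols, chromatin was fixed in 1% formaldehyde for 10 min and precipitated with 10 µg of antibody, and fragments of 200 to 300 bp were amplified over 16 PCR cycles.

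Starts, counted from 0 in the list, are printed counted from 1. An overlap of 1 bp sufficed. Windows ran from the first base to the last peak of each chromosome, with assembly gaps unmasked. Strand came from the RefSeq promoter table (GRCm38.p6), and for Myc from general knowledge. Members and lists were chosen with earlier results of these data known. All 7 genes and all of their peaks were named. The analyses of start edges, of distance bands, of gaps between peaks, of the Zfp217 peak spacing and of windows as long as the genes were added after the positions were seen. A further list of pluripotency genes needed mm9 positions and was not analysed here. Counting was tested on simulated data. Python 3.11.15, numpy 2.4.6 and matplotlib 3.10.9 were used.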

Additional observations from a re-analysis of the deposited data

How the results depend on the processing

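Of 148 alternative values, 99 stayed within 1.5 times the reported value, 49 moved further, 39 of them for single genes, and none was a reversal of a call, since no value here carries a test. The ratio of Pou5f1 to its flanks, 1.03, fell below 1 with the wider 50% of peaks (0.524, from 1 peak at the locus) and with 500 kb flanks (0.740). All 7 genes kept a peak with extensions of 10, 25 and 100 kb, after merging and in the wider 50% of peaks. In the wider 25%, 4 genes did, with none at Pou5f1, Klf4 and Myc. The total of 37 peaks and the median of 5 per gene became 23 and 3 with 10 kb, 16 and 2 in the wider 50%, and 6 and 1 in the wider 25%, all by construction. The median distance to the nearest peak rose from 0 to 4087 bp in the wider 25%. In the wider 50% the nearest peak was 11829 bp from Klf4 and 47397 bp from Myc. Of the 6 genes with a peak within 2 kb of the start edge, 4 had such a peak among the wider 50% of peaks and 1, Sox2, among the wider 25%. The median ratio to the flanks, 5.92, was 3.90 with 500 kb flanks. In the wider 50% of peaks Myc had no flanking peak, and no ratio could be given. Width stood in for the missing score, and a narrow peak need not be a weak one. No paired analysis was possible because there is 1 library of each kind. Leaving out a replicate was not possible for the same reason. Without depth, an empty stretch cannot be told from too few reads.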
